A study of Homo sapiens with 8 samples.

Results

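Chromosome 10 carried 114450 of the 1546498 accessible-chromatin peaks that were listed on chromosomes 1 to 22 and X over 8 ATAC-seq libraries of mitotic human cells. The members were all peaks placed on chromosome 10, and they were divided by their midpoint at position 61 Mb (hg38). The 30749 peaks up to that position are called proximal here and the 83701 peaks beyond it distal. The proximal side thus joins the short arm, the centromere and the first part of the long arm. The words distal arm below mean the distal side. Position 61 Mb was given beforehand as the place where the known gain of the distal long arm (10q) of the RPE-1 line begins, and no peak value was used to set it. RPE-1 is a line of human retinal pigment epithelium made immortal with telomerase (hTERT). All 8 libraries came from 1 engineered derivative, hTERT RPE-1 Plk1-/- EGFP-Plk1as. It lacks its own Plk1, a kinase of mitotic entry and spindle assembly, and carries an EGFP-tagged analog-sensitive form, whose altered ATP pocket takes the bulky inhibitor 3MB-PP1. Whether the line is a single clone is not given in the sources used here, and the peak lists hold no check of the Plk1 genotype. Every culture was arrested in prometaphase with 5 µM STLC, an inhibitor of the spindle motor kinesin-5, for 16 h, and the rounded cells were shaken off. They were then kept in STLC for 2 h with 0.5% DMSO (4 libraries) or with 10 µM 3MB-PP1 (4 libraries), and more than 95% of cells were in mitosis at collection. ATAC-seq of 50000 cells per reaction uses the transposase Tn5 to cut and tag open DNA. The comparison across position 61 Mb asks how a segment with a known gain in the RPE-1 line appears in such peak lists. The comparison by treatment asks whether loss of Plk1 activity changed that picture.

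A gain adds copies of a stretch of DNA to every cell that carries it. Tn5 then has more copies to cut, so that fragments from open sites and fragments from the closed DNA between them both become more frequent. Peak callers mark places where fragments pile up above a background, and a site that is weak on ordinary chromosomes can cross the threshold when more copies are present. In mitosis chromosomes are compacted and most transcription stops, although many promoters remain accessible. For scale, a segment present in 3 copies beside one in 2 has a DNA ratio of 1.5. Copy number was not measured here, its part in the results was not tested, and in bulk cells a larger share of cells with the gain and more open DNA per copy cannot be told apart.

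The genes on either side include several of the cell cycle, and 6 promoters of the region where peak density stepped up and of distal mitotic genes are shown first. Each is a RefSeq sequence (GRCh38.p14) from 250 bases before to 50 bases after a transcription start, written 5′ to 3′ on the gene's own strand. Capitals mark matches on either strand. The cell cycle homology region (CHR) motif was searched as TTTGAA, which reads TTCAAA on the other strand. The second motif was the CCAAT box, which reads ATTGG when reversed. CDK1, which encodes the kinase that drives cells into mitosis, starts just short of 61 Mb, and its more downstream start of 2 is shown (chr10:60778228-60778527, plus strand). RHOBTB1 spans position 61 Mb, and its farthest upstream start of 4 is shown (chr10:61001391-61001690, minus strand). KIF11 encodes the motor that STLC blocks (chr10:92592880-92593179, plus strand). KIF20B encodes a kinesin of cytokinesis (chr10:89701340-89701639, plus strand), CEP55 a protein of the midbody (chr10:93496362-93496661, plus strand) and MKI67 the proliferation antigen Ki-67, which coats mitotic chromosomes (chr10:128126374-128126673, minus strand).
CDK1: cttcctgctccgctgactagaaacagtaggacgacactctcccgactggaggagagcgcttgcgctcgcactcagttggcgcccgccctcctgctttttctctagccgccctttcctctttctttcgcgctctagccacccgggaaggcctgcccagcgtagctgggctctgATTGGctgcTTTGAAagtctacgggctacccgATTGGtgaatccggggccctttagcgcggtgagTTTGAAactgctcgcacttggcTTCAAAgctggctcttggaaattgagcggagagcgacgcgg
RHOBTB1: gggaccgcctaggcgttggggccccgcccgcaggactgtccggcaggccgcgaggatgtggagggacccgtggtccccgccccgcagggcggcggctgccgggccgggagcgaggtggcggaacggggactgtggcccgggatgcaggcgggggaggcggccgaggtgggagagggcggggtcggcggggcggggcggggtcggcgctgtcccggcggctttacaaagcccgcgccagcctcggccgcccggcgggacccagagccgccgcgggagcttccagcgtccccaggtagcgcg
KIF20B: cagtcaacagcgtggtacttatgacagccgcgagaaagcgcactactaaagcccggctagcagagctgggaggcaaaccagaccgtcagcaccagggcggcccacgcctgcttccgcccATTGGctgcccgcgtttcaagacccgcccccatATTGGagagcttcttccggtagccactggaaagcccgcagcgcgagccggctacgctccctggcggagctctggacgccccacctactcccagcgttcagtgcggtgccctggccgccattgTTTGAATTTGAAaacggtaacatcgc
KIF11: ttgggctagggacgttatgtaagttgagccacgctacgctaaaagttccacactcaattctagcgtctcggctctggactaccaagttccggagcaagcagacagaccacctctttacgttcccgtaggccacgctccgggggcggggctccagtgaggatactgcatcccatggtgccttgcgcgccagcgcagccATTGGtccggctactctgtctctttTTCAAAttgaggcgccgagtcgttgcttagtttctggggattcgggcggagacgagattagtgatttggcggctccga
CEP55: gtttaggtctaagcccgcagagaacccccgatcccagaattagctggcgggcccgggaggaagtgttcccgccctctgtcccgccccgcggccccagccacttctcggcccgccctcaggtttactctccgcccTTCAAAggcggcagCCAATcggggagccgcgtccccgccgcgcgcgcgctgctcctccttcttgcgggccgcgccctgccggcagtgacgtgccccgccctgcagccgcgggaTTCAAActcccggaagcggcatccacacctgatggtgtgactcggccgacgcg
MKI67: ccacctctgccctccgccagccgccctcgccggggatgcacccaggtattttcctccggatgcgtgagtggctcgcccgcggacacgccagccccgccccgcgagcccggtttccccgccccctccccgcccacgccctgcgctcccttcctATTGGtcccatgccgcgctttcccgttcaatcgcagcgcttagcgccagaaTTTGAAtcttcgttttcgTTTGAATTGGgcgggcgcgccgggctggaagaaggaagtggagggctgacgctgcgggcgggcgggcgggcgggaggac
The CDK1 window held 3 CHR and 2 CCAAT matches, and the RHOBTB1 window held 0 of either. The other CDK1 start held 1 of each, and a RHOBTB1 start near 60.9 Mb, not shown, also held 1 of each. In KIF20B the 2 CHR matches stand end to end, and in MKI67 1 CHR match shares a base with 1 CCAAT match. Of 13 starts of the mitotic genes named below, 10 held a CHR match and 9 a CCAAT match. These starts belong to 11 genes, since ZWINT and CDK1 have 2 overlapping windows each, which share matches in ZWINT. Among the distal mitotic genes not shown, ANAPC16 held neither motif, HELLS no CHR match and SMC3 no CCAAT match. Among 22156 protein-coding starts genome-wide, 12.4% held the first and 34.6% the second. These matches describe letters in the windows and not sites in use.

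The lists held 150577 to 252752 peaks each, and chromosome 10 took 7.20% to 7.63% of a list. Read depth is unknown, since the lists give no read totals. Peaks were narrower with 3MB-PP1 on both sides of chromosome 10, with proximal medians of 256 to 314 bp against 346 to 390 bp with DMSO. Replicate numbers 1 and 3 carried 0.868% to 0.933% of their peaks on chromosome X and numbers 2 and 4 carried 0.595% to 0.694%, in both groups. These numbers are called odd and even, and values within each are given beside the treatment results. Among markers of the labelled cell type, the promoters of KRT8, VIM, CDH2 and FN1 had a peak in all 8 lists and TGFBI in 5. Of pigment epithelium markers MITF had one in 8, RLBP1 in 2, TYR in 1 and RPE65 in 0 lists, so that the retinal visual-cycle gene RPE65 was not marked as open. PTPRC and ALB had none and NEUROD1 had 1.

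Peaks were more than 2 times as dense beyond 61 Mb as before it in every library. In DMSO replicates 1 to 4 the proximal side had 45.6, 51.2, 59.5 and 68.6 peaks per Mb and the distal side 113, 123, 149.6 and 148. In 3MB-PP1 replicates 1 to 4 the proximal side had 66.5, 71.2, 80.7 and 60.72 peaks per Mb and the distal side 156, 152, 183 and 126. The lowest distal value lies above the highest proximal value. The ratio within a library ran from 2.08 to 2.51, and the mean log2 ratio was 1.20 ± 0.10 (SD, n = 8), above 0 in 8 of 8 libraries. The exact two-sided sign-flip test over the 8 libraries gave an adjusted p of 0.0078125, the smallest it can give, after Benjamini-Hochberg adjustment over the 4 measures compared. This test, here and below, takes the libraries as independent. With the 4 same-numbered pairs as units its smallest possible p would be 0.125. The distal side took 5.26% to 5.65% of a whole list, and the proximal side 1.83% to 2.17%.

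**Figure D1:**
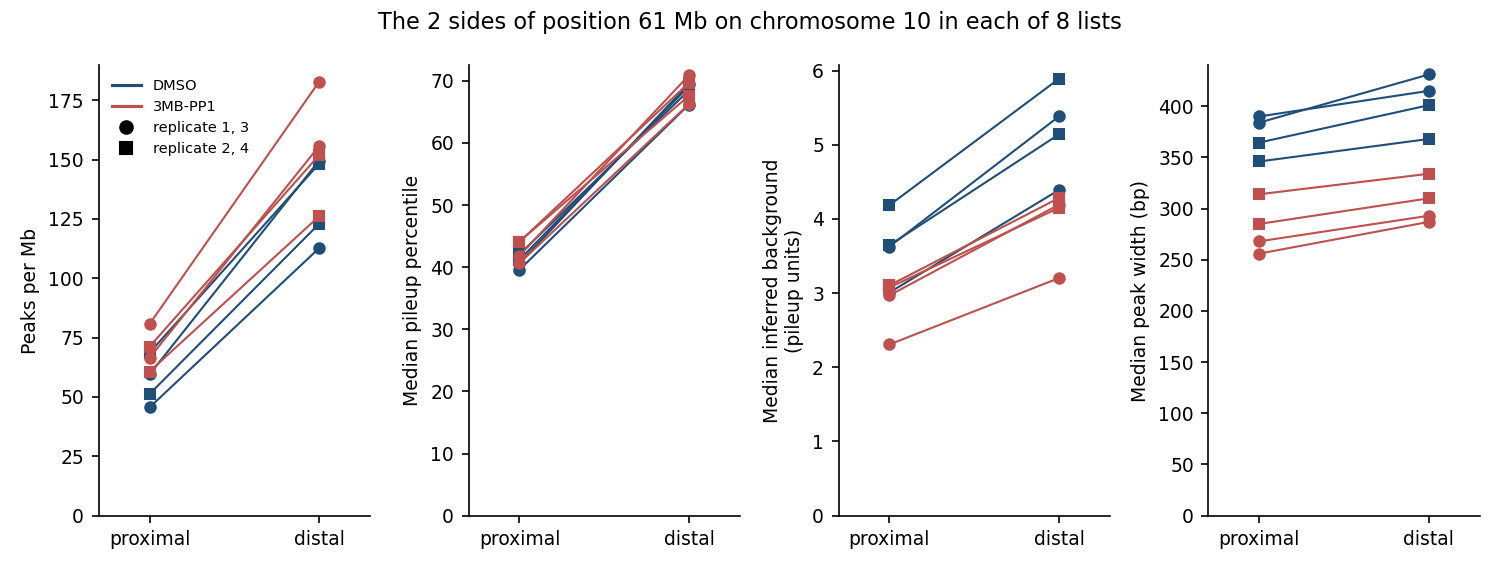
Each line joins the proximal and the distal value of 1 library, for peaks per Mb, median pileup percentile within the list, median inferred background in pileup units and median peak width in bp (all axes start at 0; circles are replicates 1 and 3, squares 2 and 4). All 8 lines rise in all 4 panels, and the 3MB-PP1 lists have the narrower peaks on both sides.

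Distal peaks were also taller within their own list. Pileup is the authors' fragment coverage of a peak, and it was turned into a percentile among all peaks of the same list because no scaling between libraries is stated. In DMSO replicates 1 to 4 the median percentile was 39.6, 41.2, 40.6 and 42.1 on the proximal side and 66.2, 69.1, 69.5 and 68.5 on the distal side. With 3MB-PP1 it was 40.7, 44.1, 41.9 and 44.1 on the proximal side and 66.3, 69.7, 70.9 and 67.6 on the distal side. The proximal peaks thus lay below the middle of every list and the distal peaks in its upper part. The difference averaged 26.7 ± 1.89 percentile points (SD, n = 8), above 0 in 8 of 8 libraries, with an adjusted exact sign-flip p of 0.0078125.

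The background against which each peak was called was higher on the distal side as well. It was inferred from the deposited columns as (pileup + 1)/fold enrichment - 1, which is the form of a MACS2 table, and its lowest value in a list is called the floor. In DMSO replicates 1 to 4 the distal median divided by the proximal one was 1.46, 1.41, 1.48 and 1.41, and with 3MB-PP1 it was 1.39, 1.38, 1.41 and 1.35. The mean log2 ratio was 0.50 ± 0.04 (SD, n = 8), above 0 in 8 of 8 libraries, with an adjusted exact sign-flip p of 0.0078125. Between 40.6% and 48.8% of proximal peaks lay within 1% of the floor, against 14.6% to 21.05% of distal ones, and so the ratio of medians cannot show a proximal background below that floor. Fold enrichment, which divides by this background, ran the other way, with medians of 2.53 to 2.92 on the proximal side and 2.42 to 2.79 on the distal side. Ranked by fold enrichment in place of pileup, distal peaks stood 19.4 percentile points lower (difference -19.4, adjusted exact sign-flip p = 0.0078125).

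Distal peaks were wider by 28.9 ± 8.96 bp on average (SD, n = 8; 20 to 47 bp in the single libraries, adjusted exact sign-flip p = 0.0078125). It was 137 bp among peaks with a −log10 q of at least 5 (adjusted exact sign-flip p = 0.0078125). Among peaks within 1 kb of an end of a protein-coding gene its mean over the 8 libraries was 3.44 bp, with an adjusted exact sign-flip p of 0.906. That mean joins 2 treatments which differed there by -130.9 bp (3MB-PP1 minus DMSO, exact permutation p = 0.0286, adjusted p = 0.114). The difference between the sides was thus above 0 on average with DMSO and below 0 with 3MB-PP1. Among the same gene-end peaks the pileup contrast was 8.73 percentile points and the log2 background contrast 0.77, each with an adjusted exact sign-flip p of 0.0104. Position within genes hardly differed between the sides. Gene-end peaks made up 4.73% to 6.33% of proximal and 4.49% to 5.77% of distal peaks, and peaks outside all genes and gene ends 36.2% to 37.9% of proximal and 36% to 38.1% of distal peaks. Strong peaks, with a −log10 q of at least 5, numbered 1.79 to 4.52 per Mb on the proximal side and 3.34 to 8.44 on the distal side. The log2 density ratio was 0.96 among these strong peaks and 1.18 among peaks outside genes, each with an adjusted exact sign-flip p of 0.0078125.

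Close to, and slightly before, position 61 Mb the density rose abruptly from that of a sparser stretch. In windows of 250 kb, the last one inside ANK3 (60.50 to 60.75 Mb), which encodes the membrane scaffold ankyrin-G, held 5 to 9 peaks over the 8 lists. The next one (60.75 to 61 Mb), with CDK1 and most of RHOBTB1, held 15, 20, 24 and 22 peaks in DMSO replicates 1 to 4 and 36, 25, 40 and 26 with 3MB-PP1. Every library thus held more peaks in the second of these windows. The 10 windows before 60.75 Mb summed to 66 to 115 peaks and the 10 after it to 212 to 385, a ratio of 2.55 to 3.86 within a library. The edge at 60.75 Mb was chosen after these counts were seen, and it carries no test. The members nearest to 61 Mb are the last proximal peak, which started between positions 60942981 and 60997806 in the 8 lists, and the first distal peak, which in all 8 overlapped the RHOBTB1 start region and had a percentile of 37.0 to 69.9.

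Of the 6 protein-coding genes within 1 Mb of the boundary, 5 had a promoter peak in all 8 lists. CDK1 had promoter pileups of 63.7, 61.8, 79.8 and 39.8 in DMSO replicates 1 to 4 and of 35.2, 32.6, 36.3 and 29.4 with 3MB-PP1, at a mean percentile of 97.9. At the highest of its 4 starts RHOBTB1 reached 63.4, 53.0, 73.1 and 40.04 with DMSO. With 3MB-PP1 it reached 36, 37.3, 31.3 and 28.1, and its mean percentile was 97.7. These heights belong to the proximal starts at 60944726 and 60944185, whose windows are not printed above. Over the printed RHOBTB1 window lay the first distal peak, with pileups of only 9.38 to 15.06 and percentiles of 37.0 to 69.9. Raw pileups are not scaled between lists. CDK1 and the highest RHOBTB1 start stood above percentile 97.0 in each list. The ANK3 promoter was called in 8 lists at a mean percentile of 87.8, and its body held 18.4 to 43.8 peaks per Mb. ARID5B, a chromatin regulator on the distal side, was called in 8 lists at 98.1, and its body held 61.5 to 195 peaks per Mb. CABCOCO1 was called in 8 lists at 76.0 and TMEM26 in 3 lists.

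Along the chromosome in 2 Mb bins, the distal arm stood out from ordinary chromosomes over most of its length. The median over the 8 lists ran from 6.25 to 129 peaks per Mb in the 29 proximal bins (the end bins and 1 centromeric bin with no peak are left out) and from 42.3 to 195 in the 36 distal ones. Of the distal bins 32 had a median above 100 peaks per Mb, against 4 proximal ones. Bins were also set against 1224 bins of the other autosomes, with chromosome 12 left out. There 28 of 36 distal bins reached the 90th percentile and 1 of 29 proximal bins did. The median distal bin lay at percentile 99.7 and the median proximal bin at 56.0. The lowest proximal values outside the centromere lay just before the boundary, at 53 to 57 Mb with 0.5 to 15 peaks per Mb, and the bin at 59 to 61 Mb held 34.5 to 60.5. The first distal bin, 61 to 63 Mb, already held 88.5 to 152. Ahead of the sparse stretch, at 1 to 25 Mb, density averaged 76.0 peaks per Mb with DMSO and 98.2 with 3MB-PP1. Those values were close to the 74.1 and 108 at 61 to 69 Mb. The first distal bins thus stood above the sparse stretch just before them and not above the whole proximal side.

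**Figure D2:**
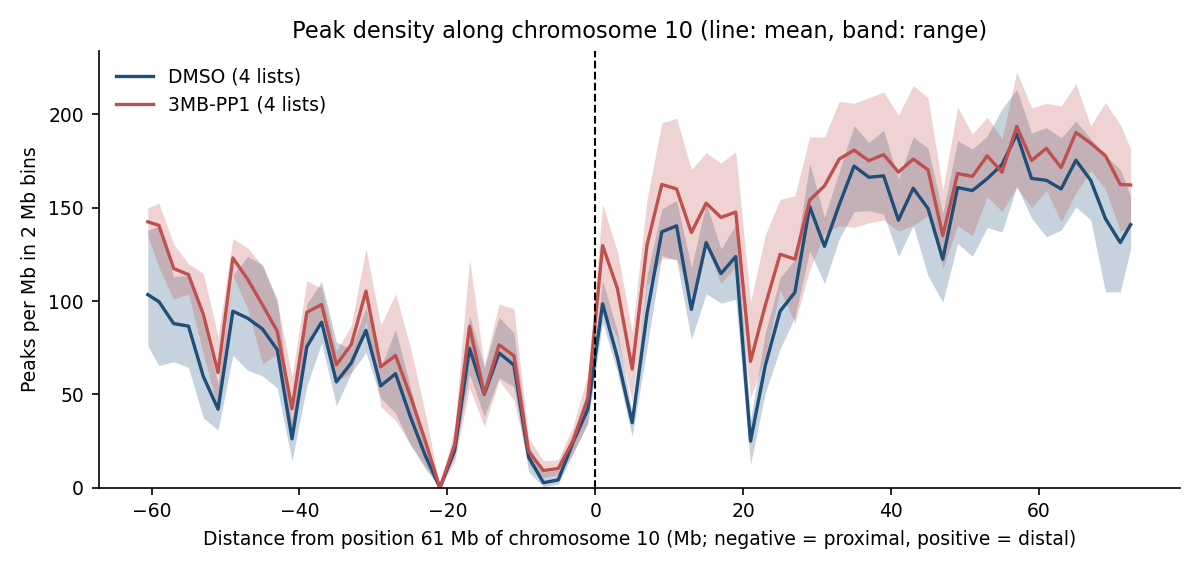
Peaks per Mb in 2 Mb bins along chromosome 10 against the distance from position 61 Mb, with the mean (line) and range (band) of the 4 DMSO and the 4 3MB-PP1 lists. The curves rise at the dashed line, the distal bins mostly lie above 100 peaks per Mb, and narrow troughs remain at about 5 and 21 Mb beyond it.

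No large step in inferred background was seen where density rose, but these values cannot decide whether there was one. Inferred background cannot fall below the floor, and in the bins just before the boundary its medians lay at or close to it. A rise that stayed below the floor could thus not be seen. The median over the 8 lists was slightly higher at 61 to 63 Mb than at 59 to 61 Mb. Over the first 8 Mb beyond the boundary (61 to 69 Mb) the median inferred background of a bin stayed at 1.00 to 1.14 times the floor, and it reached 2.16 to 2.40 times the floor only at 69 to 71 Mb. Farther out it varied between 1.00 and 3.74 times the floor. The pileup percentile followed the same course, with medians of 22.3 to 52.0 from 61 to 69 Mb and 80.95 to 89.1 at 69 to 71 Mb. The 4 bins before 69 Mb held 28 protein-coding genes, among them ARID5B, EGR2 and JMJD1C, and the next bin alone held 26. The highest background of the arm was in the last stretch, 133 Mb to the end, at 3.19 to 3.74 times the floor.

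**Figure D3:**
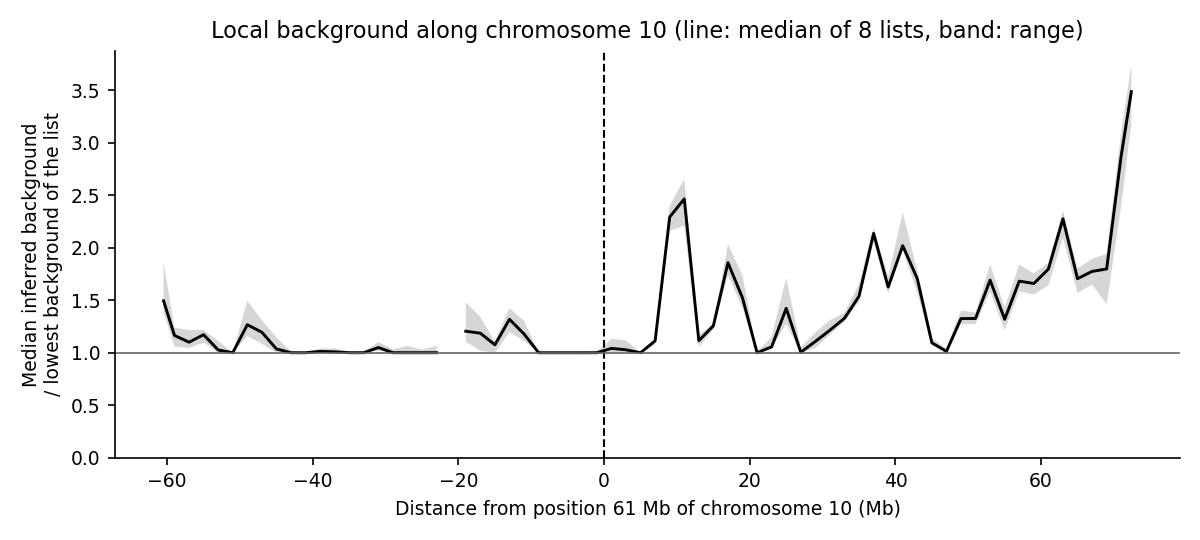
Median inferred background of the peaks in 2 Mb bins, as a multiple of the lowest background of the list, against the distance from position 61 Mb (line: median of 8 lists, band: range; the bin with no peak is left out). Bin medians reach at most 1.49 before the dashed line and 1.11 in the first 8 Mb past it, and bins farther out range over the 8 lists from 1.00 to 3.74.

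Gene content differed between the sides, and the density difference was present at each level of it. Distal 10 had 6.49 protein-coding genes per Mb and proximal 10 had 4.16. Per protein-coding gene in place of per Mb, the log2 density ratio was 0.48, with an adjusted exact sign-flip p of 0.0078125. Among bins with 0 to 5 genes the distal median was 4.32 to 6.79 times the proximal one within a library, with 6 to 15 genes 1.57 to 2.28 times, and with 16 or more genes 1.95 to 2.80 times. These ratios rest on 9 proximal and 6 distal bins, on 16 and 16, and on only 4 and 14. The 4 gene-rich proximal bins include the adjoining ones from 45 to 51 Mb. The 9 gene-poor ones include those from 51 to 59 Mb. The other autosomes, with chromosome 12 left out, were a second reference. Against them distal bins had 3.08 to 3.93, 2.20 to 2.64 and 1.65 to 1.77 times the density in these 3 classes, higher in 8 of 8 libraries each. Proximal bins had 0.53 to 0.83, 1.06 to 1.57 and 0.60 to 0.88 times, so that only the middle class stood above these autosomes. Bins share libraries and neighbours, and these ratios carry no test.

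Bins with few genes ranged widely on both sides. On the proximal side, the bin holding PCDH15 (53 to 55 Mb), a cadherin of hair cells and photoreceptors, had 0.5 to 14.5 peaks per Mb. The bin holding ZWINT (55 to 57 Mb), a kinetochore gene, had 2 to 15. Other proximal bins with 1 or 2 genes were denser, with 31 to 81 peaks per Mb at CELF2 (9 to 11 Mb), an RNA-binding protein gene, and 36 to 104 at NRP1 and PARD3 (33 to 35 Mb). On the distal side the bin holding SORCS1 (105 to 107 Mb), a sorting receptor of neurons, had 113.5 to 209, and the next one, with no protein-coding gene midpoint, had 99.5 to 159.5. Not every such distal bin was dense, and 2 overlapped these denser proximal ones. The bin of CTNNA3 (65 to 67 Mb), an alpha catenin, had 27.5 to 83.5 and that of NRG3 (81 to 83 Mb), a neuregulin, 12.5 to 99.5.

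Among 24 segments, the other chromosomes and the 2 sides of chromosome 10, distal 10 ranked first in peak density in all 8 lists, with 112 to 183 peaks per Mb over whole bins. Chromosome 12 ranked second in all 8, with 91.9 to 153. Distal 10 ranked 1 to 3 in background and in pileup percentile, and 1 to 2 when only peaks outside genes were ranked. Proximal 10 ranked 12 to 20 in density and 16 to 22 in pileup percentile. These ranks describe 8 lists of 1 cell line.

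Promoters already open in every list were taller on the distal side too. Of protein-coding genes with a promoter sequence, 254 of 431 distal and 122 of 219 proximal ones had a promoter peak in all 8 lists. Their median pileup in the 4 DMSO lists was 64.9, 58.5, 75.4 and 44.2 on the distal side and 53.3, 49.3, 58.5 and 35.2 on the proximal side. With 3MB-PP1 it was 39.3, 37.4, 42.6 and 32.5 against 30.7, 30.2, 33.6 and 24.9. The distal median was the higher in every list, at 1.19 to 1.30 times the proximal one. It was 1.31 to 1.35 times that of 7771 promoters of other autosomes, with chromosome 12 left out. Proximal promoters stood at 1.03 to 1.13 times the median of the same 7771. Distal 10, chromosome 12 and chromosome 21 shared ranks 1 to 3 of 23 segments in every list, chromosome 8 not being in the promoter table. The choice of promoters called in every list leaves out weak ones, and no test was made.

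**Figure D4:**
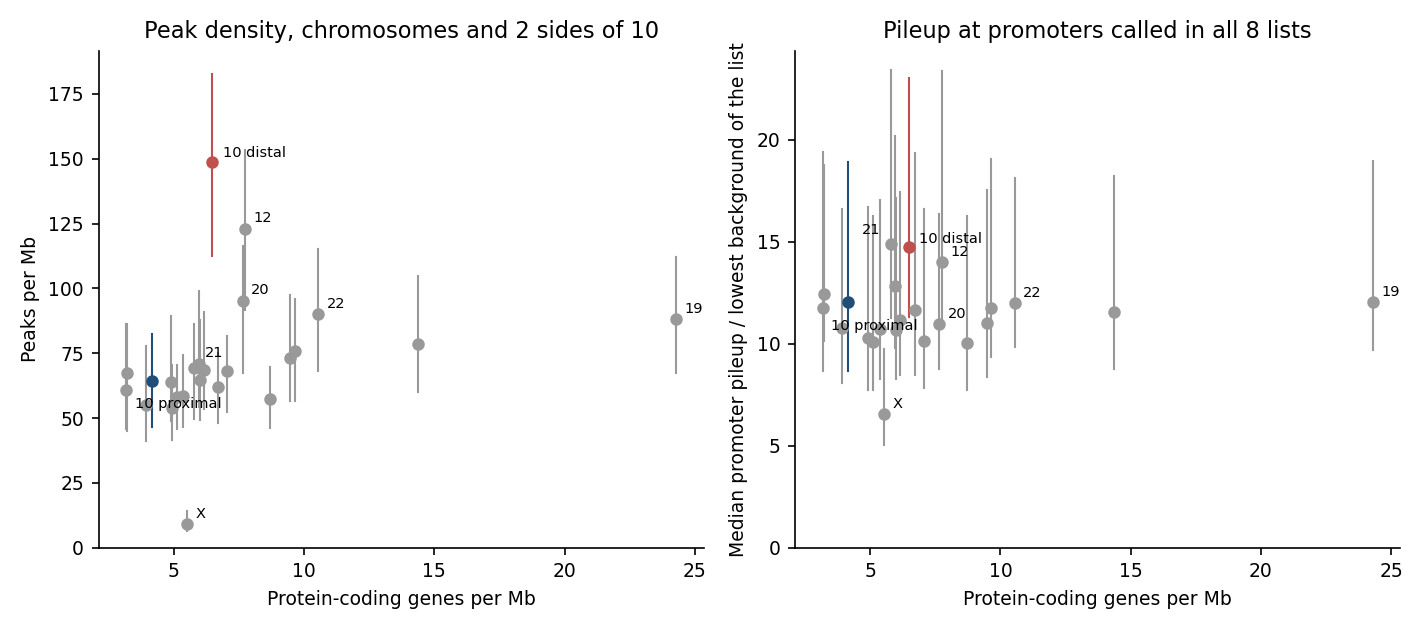
Left, peaks per Mb of each chromosome and of the 2 sides of chromosome 10 against protein-coding genes per Mb. Right, median pileup of promoters called in all 8 lists, divided by the lowest background of the list, on the same x axis. Points are medians and bars ranges over 8 lists. Distal 10 (red) is highest at left with 6.49 genes per Mb and lies beside chromosomes 21 and 12 at right, and proximal 10 (blue) lies among the other chromosomes.

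Mitotic genes lay open on both sides. Of 12 in the list 11 had a promoter sequence (BUB3 had none), and all 11 had a promoter peak in all 8 lists, against 56.4% of 15812 protein-coding promoters. Their median percentile was 97.7, beside 96.6 for all promoters called in 8 lists. On the proximal side CDC123, a translation initiation assembly factor, MASTL, the Greatwall kinase, ZWINT and CDK1 stood at 95.6, 97.7, 97.1 and 97.9. On the distal side SMC3, a cohesin subunit, had pileups of 100.8, 87.3, 119 and 74.2 with DMSO and 51.1, 56.5, 62.5 and 44.5 with 3MB-PP1, at a mean percentile of 99.4. The chromatin remodeller HELLS was at 99.5 and the anaphase-promoting complex subunit ANAPC16 at 99.1. KIF11 was the lowest of the 11, with 41.5, 33.9, 42.0 and 21.97 with DMSO and 25.2, 23.5, 25.4 and 19 with 3MB-PP1, at 94.2. KIF20B, CEP55 and MKI67 were at 98.5, 96.0 and 95.7. All 11 were thus called with both treatments and on both sides.

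Eye genes were a more uneven set. Of 11 listed 10 had a promoter sequence (RBP3 had none), 9 of them distal, and 4 of the 10 had a promoter peak in all 8 lists. These were OAT, a mitochondrial aminotransferase, at a mean percentile of 99.2, HTRA1, a secreted protease, at 98.1, PAX2 at 95.1 and the retinol carrier RBP4 at 86.3. The cone enzyme PDE6C was called in 5 lists, RGR in 3, CDH23 in 2 and ARMS2 in 1. PCDH15 and the lens regulator PITX3 had no peak in the 300-base window in any list, although PITX3 had one within 1 kb of a gene end in 8.

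Transcription factor genes were called in all lists or in few. Of 16 listed 14 had a promoter sequence (LBX1 and NKX6-2 had none), and 10 of the 14 were called in all 8 lists. The 5 proximal ones, KLF6, GATA3, BMI1, MLLT10 and ZEB1, were all among them, at 99.4, 98.8, 96.5, 98.6 and 95.4. On the distal side NFKB2, a subunit of NF-κB, stood at 99.6, TCF7L2, an effector of Wnt signalling, at 99.2, EGR2 at 97.2 and HHEX at 83.7. The 300-base window of TLX1 had a peak in 2 lists and those of PITX3, EMX2 and EBF3 in none. Within 1 kb of either gene end, PITX3 had a peak in 8 lists, TLX1 in 7, EBF3 in 3 and EMX2 in 2, so that these calls depend on the window.

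Of 22 signalling and cytoskeleton genes 18 had a promoter sequence (NRP1, BTRC, FGF8 and DUSP5 had none), and 14 were called in all 8 lists. VIM, the gene of the intermediate filament vimentin, had the top proximal region (chr10:17228186-17230142), with pileups of 147, 147, 209 and 127 in the DMSO lists and 78.4, 92.2, 93.9 and 74.0 in the 3MB-PP1 lists. SUFU, a repressor of Hedgehog signalling, shares the second distal region with ACTR1A, a dynactin subunit (chr10:102501946-102504794), with 227, 187, 297 and 152 against 115, 127, 153 and 97.5. The mean percentiles of these regions were 99.92 and 99.99. SIRT1, a deacetylase, was at 99.8, BAG3, a chaperone partner, at 99.7 and VCL, the gene of vinculin, at 99.6. FGFR2 and MGMT, a DNA repair gene, were called in 7 lists each, and the RET receptor and the chemokine CXCL12, both proximal, in 0.

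The other top regions were also at gene starts or inside genes. The first distal one lay in INPP5A, an inositol phosphatase gene (chr10:132536796-132538450), with 230.1, 223, 296 and 209.8 in the DMSO lists and 143, 163, 185 and 127 in the 3MB-PP1 lists. The third to the fifth lay at MMS19 and UBTD1, at C10orf143, and at STK32C and LRRC27. On the proximal side RSU1, RPP38, NMT2 and DNAJC1 followed VIM. Mean percentiles of the 5 ran from 99.76 to 99.92 on the proximal and from 99.94 to 99.99 on the distal side.

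Peaks recurred between libraries more often on the distal side. Merging the 8 lists gave 12326 proximal and 26473 distal regions. Of these 4.70% and 8.70% were called in all 8 lists, beside 6.23% over all chromosomes, and 52.5% and 42.7% in 1 list. Gene-end peaks in all 8 lists were found for 150 of 248 proximal (60.5%) and 354 of 486 distal protein-coding genes (72.8%), beside 60.0% overall. Genes with a gene-end peak in no list made up 8.47% of the proximal and 1.85% of the distal ones, beside 9.13% overall.

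No difference between treatments in the contrast of the 2 sides passed the test. The log2 density ratio was 1.25 ± 0.10 on average in the DMSO lists (SD, n = 4). In the 3MB-PP1 lists it was 1.14 ± 0.08 (SD, n = 4). They differed by -0.11 (exact permutation p = 0.114, adjusted 0.229). The ratio was lower with 3MB-PP1 in 4 of 4 same-numbered pairs, by -0.11 within odd and -0.11 within even numbers. The log2 background ratio was 0.53 ± 0.04 and 0.47 ± 0.03, a difference of -0.06 (exact permutation p = 0.0857, adjusted 0.229), also lower in 4 of 4 pairs, by -0.07 within odd and -0.05 within even numbers. The pileup contrast differed by -1.54 percentile points (-0.44 odd, -2.65 even) and the width contrast by -7.38 bp (-8 odd, -6.75 even), each with an exact permutation p of 0.314. The width difference was larger in subsets of peaks, at -130.9 bp among gene-end peaks and -22.1 bp outside genes (exact permutation p = 0.0286 and adjusted p = 0.114 in each) and -45.9 bp at a −log10 q of at least 5 (adjusted p = 0.314). With 1 library left out the pileup difference was -0.72 without 3MB-PP1 replicate 4 and -2.58 without 3MB-PP1 replicate 3, and the width difference was -2.58 bp without DMSO replicate 3, and no such fit passed the test. The smallest p that 4 against 4 libraries allow is 0.0286, and an adjusted p of 0.05 or less would need 3 of the 4 measures to reach it together. Within odd or even numbers, 2 against 2 libraries allow no p below 0.333. The contrast itself was larger in odd than in even numbers, at 1.26 and 1.13 for log2 density and 0.52 and 0.47 for log2 background, and the part of this split in the results was not tested.

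Within the distal arm the treatments differed by position. As a share of the whole list, 5 of 36 distal bins were higher in every 3MB-PP1 list than in every DMSO list and 9 of 36 were lower, where 6.79% and 7.63% of all 1429 bins were. None of the 29 proximal bins was in either set. The higher bins lay at 63 to 69, 73 to 75 and 81 to 83 Mb, and the lower ones at 97 to 101, 109 to 111, 113 to 121 and 123 to 127 Mb. In the NRG3 bin (81 to 83 Mb) the share per 1000 peaks of the list was 0.166, 0.265, 0.303 and 0.367 in the DMSO lists and 0.449, 0.732, 0.787 and 0.574 in the 3MB-PP1 lists. In the CTNNA3 bin (65 to 67 Mb) it was 0.365, 0.506, 0.318 and 0.407 against 0.548, 0.653, 0.661 and 0.539. These are the bins of lowest density on the distal side. At 117 to 119 Mb, the densest bin, it was 2.15, 2.24, 2.16 and 2.06 against 1.85, 1.89, 1.76 and 1.89. Among peaks with a −log10 q of at least 5 the sets held 4 and 0 distal bins, where 4.55% and 4.41% of all bins were in them. With lists of equal length they held 4 and 2, where 5.60% and 7.21% of all bins were, and the share of lower distal bins was then not above that of all bins.

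**Figure D5:**
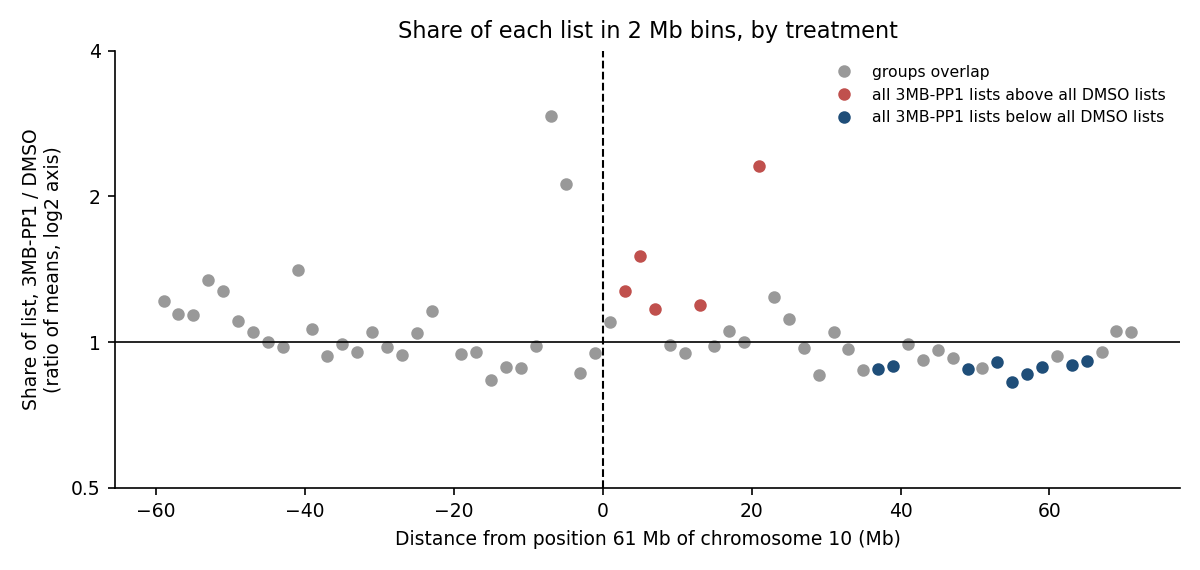
Ratio of the mean share of the list with 3MB-PP1 to that with DMSO in 2 Mb bins (log2 axis) against the distance from position 61 Mb. Red and blue points are bins in which the 4 lists of one treatment lie wholly above or below those of the other. All 14 such bins are distal, the 5 higher ones within 22 Mb of the dashed line and the 9 lower ones farther out.

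Few chromosome 10 regions belonged to 1 treatment alone. Regions that all 4 DMSO libraries called and no 3MB-PP1 library did numbered 7 proximal and 32 distal (0.0568% and 0.121%), where 0.12% of all regions were. The reverse was true of 17 and 41 (0.138% and 0.155%), where 0.148% of all regions were. With any 1 library left out, so that 7 lists decide, the 39 and 58 regions of both sides became 62 to 112 and 85 to 176. The matching shares of all regions are not given here. Of the first kind, the highest by mean percentile were chr10:132970863-132971340, the nearest protein-coding gene being CFAP46, chr10:132980901-132981520, and chr10:97767563-97768745 at SFRP5, which encodes a secreted Wnt antagonist. At SFRP5 the pileup was 23.9, 33.3, 32.2 and 29.8 in the DMSO lists. Of the second kind they were chr10:126571355-126571912 in C10orf90, chr10:93062536-93063255 at CYP26C1, which encodes a retinoic acid hydroxylase, and chr10:131830604-131831271. At CYP26C1 the pileup was 15.1, 21.02, 19.9 and 20.1 in the 3MB-PP1 lists. A region that was not called can still hold fragments below the threshold of its list.

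By gene ends, 1 of 734 chromosome 10 genes was marked by all 4 DMSO libraries and by no 3MB-PP1 library, where 0.0551% of all genes did. It was FGF8, a growth factor of limb and brain development on the distal side (chr10:101770109-101780369), at a percentile of 94.6 ± 1.29 (SD, n = 4) in the DMSO lists. The reverse was seen for 0 of 734, where 0.12% of all genes did. Single calls of this kind carry no test.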

How the data were processed

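ATAC-seq peak lists of 8 libraries (4 DMSO, 4 3MB-PP1, grouped by title) were used. Peaks had been called per library with MACS2 on hg38, per the submitters' processing notes, and the aligner and calling settings are not given in the sources used here. The deposited pileup is a signal (fragment coverage) whose scaling between libraries is not stated, the deposited q and p columns hold −log10 values from the authors' calling, the deposited fold enrichment is a ratio to background, and all were used only within a list. Midpoints assigned peaks to sides and 2 Mb bins, and overlap of the whole peak assigned them to genes and gene ends (RefSeq, GRCh38.p14). Genes were counted in bins by their own midpoints. Side contrasts were tested by exact sign-flip over 256 sign patterns and treatment by exact permutation over 70 assignments, both two-sided, with Benjamini-Hochberg adjustment over 4 measures. These p-values cover the spread between libraries of 1 cell line. Same-numbered libraries deviated together over 1354 bins (correlations 0.45, 0.62, 0.41 and 0.23). Unlike-numbered libraries within the odd or within the even set reached 0.09 to 0.51, and those across the sets -0.57 to -0.02. The values thus show the odd and even sets, and pairing by single number is not established by them. Regions were peaks of the 8 lists merged at 1 bp of overlap or more. A promoter was called where a peak overlapped its 300-base window at any start. Named genes were 4 lists, the top 5 regions per side, the first 3 treatment-only regions per direction, every treatment-only gene, and genes within 1 Mb of 61 Mb. The members and lists were chosen with earlier results of these data known. Alternatives were other thresholds, widths, list lengths, boundaries at 59 and 63 Mb, leaving out 36 to 44 Mb, positions in genes, fold in place of pileup, leaving out each library, and the replicate block. Scripts were tested on simulated data and used scipy 1.17.1, numpy 2.4.6 and pandas 2.3.3 in Python 3.11.15, with matplotlib 3.10.9 for figures and bedtools 2.31.1 to check merging.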

Additional observations from a re-analysis of the deposited data

How the results depend on the processing

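The distal density, pileup and background contrasts kept their direction and an adjusted exact sign-flip p below 0.05 under every alternative run, except that ranking by fold enrichment turned the pileup contrast to -19.4 points. Their size moved among gene-end peaks, to 8.73 points for pileup and 0.77 for log2 background. With any 1 library left out, the log2 density contrast ran from 1.18 to 1.22, the pileup contrast from 26.4 to 27.2, the log2 background contrast from 0.49 to 0.51 and the width contrast from 26.4 to 30.2 bp. Among gene-end peaks the width contrast, averaged over both treatments, was 3.44 bp and lost its call. The width contrast was 137 bp at a −log10 q of at least 5. The treatment differences, none of them past the threshold, turned to 0.044 for log2 density and 4.32 points for pileup at a −log10 q of at least 5, and to 0.031, 5.15 and, for log2 background, 0.050 among gene-end peaks. With the replicate block, treatment permuted within pairs gave exact p-values of 0.125 for density, 0.25 for pileup, 0.125 for background and 0.375 for width, where 0.125 is the smallest possible, and it changed no call. Leaving out 1 library moved the treatment difference from -0.72 to -2.58 points for pileup and from -2.58 to -10.9 bp for width, and it was -130.9 bp for width among gene-end peaks, none past the threshold.

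Leaving out 1 library at a time, distal bins with a higher share under 3MB-PP1 numbered 5 to 7 and those with a lower share 9 to 12. Over all bins the shares were then larger too, at most 14.5% and 12.9%, both without DMSO replicate 4. With equal list lengths the lower ones numbered 2, at a −log10 q of at least 5 they numbered 0, and 3 with peaks of at least 300 bp. Of all bins 7.21%, 4.41% and 6.79% were then lower. These bin alternatives were chosen after seeing the data. Regions called only with DMSO and only with 3MB-PP1 (39 and 58) became 6 and 0 at a −log10 q of at least 5, 80 and 13 with peaks of at least 300 bp, and 267 and 447 with calls in 3 of 4 lists. Without 1 library they ran from 62 to 112 and from 85 to 176, over 1.5 times the counts from all lists for each of the 8 libraries with DMSO and, with 3MB-PP1, for each but DMSO replicate 1 (85). Counts over all chromosomes are not given for these region alternatives, so the moves are not read as particular to chromosome 10. The cause of these changes was not tested, apart from fewer calls being needed where lists were left out or 3 of 4 sufficed. Read depth is unknown and limits what an absent call means.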

Other observations

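The stretches before and beyond 93 Mb of the distal arm differed in their balance between treatments. The density at 61 to 93 Mb divided by that at 93 to 133 Mb was 0.634, 0.639, 0.600 and 0.654 in DMSO replicates 1 to 4 and 0.730, 0.751, 0.784 and 0.684 with 3MB-PP1, so that the groups did not overlap. The 3MB-PP1 mean was higher by 0.14 within odd and by 0.07 within even replicate numbers. With lists of equal length the ratio was 0.600 to 0.641 and 0.667 to 0.761, and among peaks with a −log10 q of at least 5 it was 0.749 to 0.894 and 0.738 to 0.869, where the groups overlapped. The stretches were chosen after the values were seen, and no test was made.

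In peaks per Mb, which vary with list length, odd and even replicate numbers overlapped at 2 proximal stretches that were chosen after the values were seen. At 31 to 51 Mb the 4 odd-numbered libraries held 43.7 to 72.3 peaks per Mb and the even-numbered ones 32.2 to 45.0. At 1 to 25 Mb the odd-numbered libraries held 55.0 to 102 and the even-numbered ones 75.4 to 111. As a share per 1000 peaks of the list, the sets parted in most bins, in opposite directions. At 31 to 51 Mb all odd-numbered libraries lay above all even-numbered ones in each bin with peaks, except 41 to 43 Mb. At 33 to 35 Mb the odd-numbered held 0.77 to 0.90 and the even-numbered 0.42 to 0.60. At 1 to 25 Mb all even-numbered libraries lay above all odd-numbered ones, except at 23 to 25 Mb. At 7 to 9 Mb the odd-numbered held 0.49 to 0.73 and the even-numbered 0.81 to 1.13. Both treatments are present in each set, and the cause was not tested.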
